A study of Mus musculus with 8 samples.

Results

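The cornified envelope genes are the Lce and Sprr families together with Lor, Ivl, Flg, Flg2 and Hrnr. They were chosen by name, as every entry whose symbol starts with Lce or Sprr plus those 5 single genes, and 39 of 35397 gene symbols met the rule. These were 18 Lce symbols, 16 Sprr symbols and the 5 single genes, and 36 of the 39 were found in each of the 3 deposited tables. Closely related copies are joined in some entries, so there were 35 entries for bulge stem cells, 35 for Shh-CreER hair bulbs and 34 for K15-CrePGR hair bulbs.

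The RNA came from follicle cells of mixed-strain mice whose floxed Bmpr1a, which encodes a BMP receptor, was removed by Cre recombinase. Bulge stem cells (HFSC) came from K15-CrePGR mice at postnatal day 68, with 1 library of the deleted genotype (cKO, Bmpr1a fl/fl) and 1 control library (labelled Het). Transit-amplifying cells (TACs), the dividing progeny of the stem cells in the hair bulb, came from Shh-CreER mice at day 68, with 1 cKO and 1 Het library. TACs were also taken from hair bulbs of K15-CrePGR mice at day 80, as KO samples 64 and 84 and WT samples 52 and 57. The K15 promoter drives Cre in bulge stem cells, so that deleted bulb cells of K15-CrePGR mice descend from deleted stem cells, whereas the Shh promoter is active in the matrix of the bulb. Both Cre forms are induced by a drug, and the labels give no agent or schedule. They name the Cre line for the control libraries too, without saying whether those mice carried or induced it, and the number of mice per library is not stated.

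The cornified envelope is the sheet of crosslinked protein that replaces the plasma membrane of dying keratinocytes in the outer epidermis. Involucrin (Ivl) is laid down early as a scaffold, loricrin (Lor) is later its most abundant component, and the small proline-rich proteins (Sprr) act as crossbridges between them. Late cornified envelope proteins (Lce) are added last, while filaggrin (Flg) and its relatives Flg2 and hornerin (Hrnr) bundle keratin filaments and support the barrier. Nearly all of these genes lie side by side on mouse chromosome 3 in the epidermal differentiation complex, and transglutaminases crosslink their products. Several Sprr genes are known to be switched on in stressed or wounded keratinocytes outside terminal differentiation.

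All 39 symbols mapped to chromosome 3. In the RefSeq order of GRCm38.p6, Lor came first, followed by the Sprr2 genes, Sprr1b, Sprr3, Sprr1a, Sprr4 and Ivl, and then by Lce6a, the Lce1 and Lce3 genes, Lce1m, Flg2, Flg and Hrnr. The upstream sequences of 5 genes on which the results turn are given here from RefSeq (GRCm38.p6, 250 bases before the annotated start, 5′ to 3′ on the gene's strand). Lor and Lce1m were among the genes with the largest differences in bulge stem cells, Ivl was lower in the cKO library at both Cre lines of day 68, and Sprr1a and Sprr4 were higher in the deleted libraries of all 3 tables. Capitals mark matches to an AP-1 motif (TGANTCA) and to a TATA box (TATAA), either strand.
Lor (chr3:92083143-92083392, minus strand): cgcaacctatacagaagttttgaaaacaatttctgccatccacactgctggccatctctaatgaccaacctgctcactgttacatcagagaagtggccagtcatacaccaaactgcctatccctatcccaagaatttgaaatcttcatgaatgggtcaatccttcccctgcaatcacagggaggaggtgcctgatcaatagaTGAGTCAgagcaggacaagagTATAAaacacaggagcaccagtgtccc
Lce1m (chr3:93019062-93019311, minus strand): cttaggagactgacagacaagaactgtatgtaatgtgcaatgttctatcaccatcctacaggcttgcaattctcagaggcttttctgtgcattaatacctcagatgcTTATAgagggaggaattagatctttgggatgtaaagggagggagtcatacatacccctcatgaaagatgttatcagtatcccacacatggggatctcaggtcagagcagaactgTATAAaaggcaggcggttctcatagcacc
Ivl (chr3:92573736-92573985, minus strand): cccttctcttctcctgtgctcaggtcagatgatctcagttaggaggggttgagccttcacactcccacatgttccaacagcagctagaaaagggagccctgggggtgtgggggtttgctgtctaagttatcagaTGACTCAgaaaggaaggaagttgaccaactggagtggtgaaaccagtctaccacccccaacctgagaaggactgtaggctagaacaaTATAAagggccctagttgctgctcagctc
Sprr1a (chr3:92485882-92486131, minus strand): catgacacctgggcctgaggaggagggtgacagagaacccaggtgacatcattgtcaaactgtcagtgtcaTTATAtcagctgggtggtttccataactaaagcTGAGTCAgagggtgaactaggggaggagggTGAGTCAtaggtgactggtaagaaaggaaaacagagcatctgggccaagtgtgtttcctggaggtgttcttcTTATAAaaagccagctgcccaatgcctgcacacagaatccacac
Sprr4 (chr3:92500494-92500743, minus strand): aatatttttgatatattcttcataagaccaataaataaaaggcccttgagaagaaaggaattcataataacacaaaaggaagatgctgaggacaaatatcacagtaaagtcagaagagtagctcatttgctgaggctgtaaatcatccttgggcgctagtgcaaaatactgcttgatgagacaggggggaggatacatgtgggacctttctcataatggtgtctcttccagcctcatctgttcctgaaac

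Of the 39 symbols, 36 had an upstream sequence. The AP-1 letters occurred in 13 of these 36, against 6.75% of all 32851 promoters in the RefSeq table. They were split by family, with matches in 9 of 14 Sprr promoters, in 4 of the 5 single genes (all but Hrnr) and in 0 of 17 Lce promoters. Of the 9, 7 were Sprr2 promoters, each with a match beginning 193 to 198 bases before the start. The Sprr2 genes are related copies, so their promoters are not independent. Sprr1a held AP-1 matches beginning 146 and 116 bases before the start, Ivl held one at 116 bases and Lor one at 48 bases. The Sprr4 stretch held no AP-1 or TATAA match. By the offset of neighbouring genes between the builds, however, it lies inside the Sprr4 locus listed for K15-CrePGR bulbs (mm9 chr3:92303782-92305704). It may therefore not be the Sprr4 promoter, and its missing matches cannot be set against the other genes. A match to TATAA was found in 19 of the 36 (22.8% of all promoters), in 10 of 14 Sprr promoters and 4 of 17 Lce promoters. The letters CACCC, found at Klf4-type sites, occurred in 14 of the 36 (52.01% of all promoters) and GGCGCC, found at Smad1-type sites, in 0 of the 36 (9.59% of all promoters). TATAA can overlap its own reverse complement, as in Sprr1a. A match is a string of letters and not a measured binding site, and a missing match says only that these letters are not in the window.

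Bulge markers were present in both HFSC libraries but differed between them, with 3 of 7 at least 2-fold lower in cKO and 1 at least 2-fold higher. Krt15 was at 3075 FPKM in cKO and 7834 FPKM in Het, Cd34 at 147 and 556 FPKM, and Krt24 at 46.1 and 365 FPKM. Sox9 was the higher one, at 120 FPKM in cKO and 59.4 FPKM in Het. FPKM, the unit of every level given here, is a fragment count corrected for transcript length and for the size of the library. All 6 matrix TAC markers had a mean of at least 1 FPKM in both bulb tables, including Shh at 199 FPKM in Shh-CreER cKO and 111 FPKM in Shh-CreER Het. Most of the 6 stood the other way in Shh-CreER TACs, with 3 at least 2-fold lower in cKO and 1 at least 2-fold higher. Hoxc13, for example, was at 14.9 FPKM in Shh-CreER cKO and 152 FPKM in Shh-CreER Het. Bmpr1a was listed between 31.8 and 46.0 FPKM in all 8 libraries, a whole-gene value that does not check the deletion. Sex-linked transcripts differed within comparisons, so that Xist was at 3.98 FPKM in HFSC cKO and 68.9 FPKM in HFSC Het, and at 3.26 FPKM in WT 52 against 175 to 226 FPKM in the other K15-CrePGR bulb samples. Their part in the results was not tested. Sequencing depth is not stated. From the steps of the lowest values, HFSC cKO had 0.854 times the depth of Het, Shh-CreER cKO 1.003 times that of Het, and the K15-CrePGR samples 0.911 to 1.134 times that of WT 52. Each table was normalized separately, and genotypes were compared within a table.

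In bulge stem cells the cKO library was set against the Het library to see what loss of Bmpr1a does there. The envelope genes separated into those that were far lower in the cKO library, namely Lor, the Lce genes, Flg2, Hrnr and, less so, Ivl, and a few Sprr genes that were higher. Lce1 transcripts summed to 67.4 FPKM in cKO and 1109 FPKM in Het, 16.5-fold lower, while Sprr transcripts summed to 829 FPKM in cKO and 410.4 FPKM in Het, 2.02-fold higher. Of 35 entries 23 had a mean of at least 1 FPKM, and among these 18 were at least 2-fold lower and 2 at least 2-fold higher on the log2(FPKM + 1) scale. Over all 12205 genes kept at that mean, 4.6% were at least 2-fold lower and 5.92% at least 2-fold higher. The median log2 difference came to -3.15 for the 23 kept members and -1.16 for all 35 entries, beside 0.05 for all genes kept. The median of the kept members was -2.05 with a pseudocount of 5 FPKM and -1.32 with no filter on low values. Because 3 members (Lce1g, Lce1h and Lce3c) reached the mean through the Het library alone, the counts describe the kept entries and not the whole family. With 1 library per genotype there is no replicate check and no test. In such bulk samples fewer cells of a type and less RNA per cell cannot be told apart.

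Lor was listed at 42.0 FPKM in cKO and 1119 FPKM in Het, 26.6-fold lower, and only 1 of the 12205 genes had a lower log2 difference than its -4.70. It was the most abundant envelope transcript of the Het library, where it made up 39.1% of the summed level of all members, against 4.24% in cKO. Lor shared no stretch of 50 bases with any other member's transcript.

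All 12 Lce1 entries were lower in cKO, by 13.7-fold to 25.4-fold. Lce1m, the highest of them, was at 23.5 FPKM in cKO and 430.4 FPKM in Het. Lce1a1 was at 11.5 FPKM in cKO and 157 FPKM in Het, and Lce1a2 at 7.47 FPKM in cKO and 143 FPKM in Het. The Het levels of these genes thus spread over a wide range while the ratio to cKO stayed within a narrow one, and 9 of the 12 lay between 13.7-fold and 16.6-fold.

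Lce1b was at 6.88 FPKM in cKO and 99.5 FPKM in Het, and Lce1c at 6.57 FPKM in cKO and 97.5 FPKM in Het. Lce1d was at 2.40 FPKM in cKO and 39.8 FPKM in Het. Lce1l was at 2.49 FPKM in cKO and 35.9 FPKM in Het. These 4 genes stood in the middle of the family's levels. Lce1f was at 1.99 FPKM in cKO and 32.8 FPKM in Het, and Lce1i at 1.95 FPKM in cKO and 28.1 FPKM in Het. Lce1e was at 1.44 FPKM in cKO and 20.6 FPKM in Het. Lce1h was at 0.741 FPKM in cKO and 18.8 FPKM in Het, the largest ratio of the family. Lce1 transcripts resemble each other, sharing up to 25.4% of their 50-base stretches with other members (GENCODE vM21), and the sources used here do not give how shared reads were assigned. Lce1m, 18.3-fold lower in cKO, shared none with other members. Sharing with genes outside the members was not checked.

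The other Lce genes were lower by smaller ratios. Lce6a was at 2.08 FPKM in cKO and 17.9 FPKM in Het, 8.61-fold lower. The Lce3 genes, which are known from injured and psoriatic skin, were hardly expressed, with Lce3c at 0.585 FPKM in cKO and 2.55 FPKM in Het and the remaining 3 below 1 FPKM in both libraries. The filaggrin relative Flg2 was at 8.41 FPKM in cKO and 74.5 FPKM in Het, 8.86-fold lower. Hrnr was at 13.9 FPKM in cKO and 60.3 FPKM in Het, 4.33-fold lower. Flg itself had no entry in either table of day 68 and is given only for the K15-CrePGR bulbs. Ivl, the early scaffold, was at 26.9 FPKM in cKO and 68.7 FPKM in Het, 2.55-fold lower, a smaller ratio than that of Lor or of any Lce gene with a value in both libraries. On the log2(FPKM + 1) scale, 25 genes were at least 8-fold lower in cKO, of which 13 were members, and 95 were at least 4-fold lower, of which 16 were members.

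**Figure D1:**
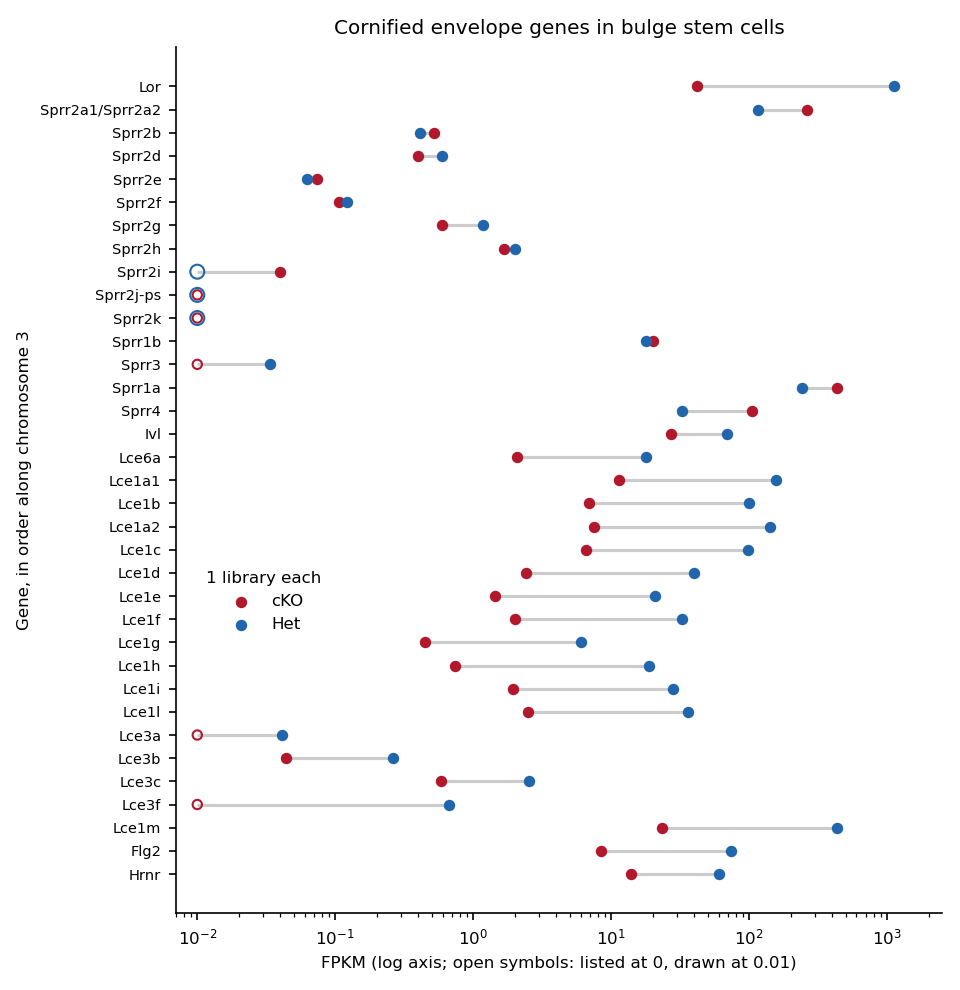
FPKM of each cornified envelope gene in the cKO (red) and Het (blue) HFSC libraries, 1 library each, on a log axis with genes in their order along chromosome 3; open symbols are values listed at 0. Lor and the Lce1 genes stand far lower in cKO (42.0 against 1119 FPKM for Lor), while Sprr1a, Sprr4 and the Sprr2a entry stand higher.

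The Sprr genes lie between Lor and Ivl and did not share the lower levels of those flanking genes. Sprr4 was at 105 FPKM in cKO and 32.6 FPKM in Het, 3.22-fold higher. The joined entry of the near-identical Sprr2a1 and Sprr2a2 was at 263 FPKM in cKO and 116 FPKM in Het, 2.28-fold higher, and a second row under the same label ran the same way. Sprr1a was at 437 FPKM in cKO and 239.7 FPKM in Het, 1.82-fold higher, and was the most abundant envelope transcript of the cKO library. Sprr1b was at 20.2 FPKM in cKO and 18.0 FPKM in Het, within 2-fold. The remaining 9 Sprr2 entries were at or below 2.02 FPKM in both libraries, and Sprr3, a gene of internal stratified epithelia, was listed at 0 in cKO and at 0.0334 FPKM in Het. Through these opposite differences the Sprr share of the summed envelope transcripts was 83.7% in cKO and 14.3% in Het.

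Other genes of cornification were lower in part. Of 33 measured genes of the cornification machinery (crosslinking enzymes, suprabasal keratins, desmosomal proteins, barrier lipid enzymes and proteases) 32 were kept, of which 18 stood at least 2-fold lower and 14 within 2-fold (median log2 difference -1.09). Among those within 2-fold, Cst6, which encodes a cystatin, was at 340.2 FPKM in cKO and 235 FPKM in Het, an example chosen after its values were seen. Alox12b, a lipoxygenase needed for the lipid envelope, was at 4.36 FPKM in cKO and 28.4 FPKM in Het. The transglutaminase Tgm5 was at 52.9 FPKM in cKO and 294 FPKM in Het. The filaggrin-processing protease Asprv1 was at 86.2 FPKM in cKO and 389 FPKM in Het, and cornifelin (Cnfn) at 22.8 FPKM in cKO and 101.8 FPKM in Het. Alox12b, Tgm5, Asprv1 and Cnfn were thus lower in cKO, as Ivl was.

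Of the 23 other genes of the epidermal differentiation complex 18 were kept, with 3 at least 2-fold lower and 2 at least 2-fold higher (median -0.09). Crct1 was at 41.6 FPKM in cKO and 318 FPKM in Het, Kprp, a proline-rich keratinocyte protein, at 7.18 FPKM in cKO and 53.7 FPKM in Het, and S100a4 at 587 FPKM in cKO and 1924 FPKM in Het. S100a1 was at 181 FPKM in cKO and 84.3 FPKM in Het. Of 17 measured regulators of epidermal differentiation 1 was at least 2-fold lower and 0 at least 2-fold higher (median -0.27). That was Ovol1, at 14.9 FPKM in cKO and 33.4 FPKM in Het. Zfp750 was at 33.8 FPKM in cKO and 60.3 FPKM in Het, Grhl3 at 12.0 FPKM in cKO and 20.8 FPKM in Het, and Nfe2l2, a regulator of the oxidative stress response, at 71.0 FPKM in cKO and 40.3 FPKM in Het.

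Markers of suprabasal interfollicular epidermis, a cell type that a bulge preparation could also hold, were in part lower in cKO. That was the direction of Lor and the Lce genes and not of Sprr1a and Sprr4. All of these markers are also on the list of cornification machinery, here and for the bulbs, so the lists are not separate observations. The markers summed to 5144 FPKM in cKO and 10400.5 FPKM in Het, with 3 of 6 kept markers at least 2-fold lower and none listed at 0 in both libraries. Krt10 was at 2026 FPKM in cKO and 4693 FPKM in Het, and Krt1 at 775 FPKM in cKO and 1092 FPKM in Het. Krt1 and Krt10, keratins of the spinous layer, thus differed far less than Lor. Sebaceous gland markers were at least 2-fold lower in 6 of 8 and summed to 237 FPKM in cKO and 644 FPKM in Het, and immune markers were at least 2-fold lower in 4 of 5 kept and summed to 122 FPKM in cKO and 303 FPKM in Het. Infundibulum and isthmus markers summed to 4908 FPKM in cKO and 1720 FPKM in Het, with 2 of 5 at least 2-fold higher. Most of that sum was Krt17, at 4127 FPKM in cKO and 1119 FPKM in Het. Lrig1 was the other marker past 2-fold, while Krt79, Lgr6 and Gata6 lay within 2-fold. Melanocyte markers were at least 2-fold higher in 4 of 4 kept and summed to 37.2 FPKM in cKO and 5.02 FPKM in Het. Inner root sheath keratins were at least 2-fold higher in 4 of 5 kept and summed to 31.8 and 9.78 FPKM. Hair shaft keratins were at least 2-fold higher in 5 of 5 kept, all kept through the cKO library alone, and summed to 21.8 and 0.978 FPKM. The part of these cells in the envelope result was not tested.

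**Figure D2:**
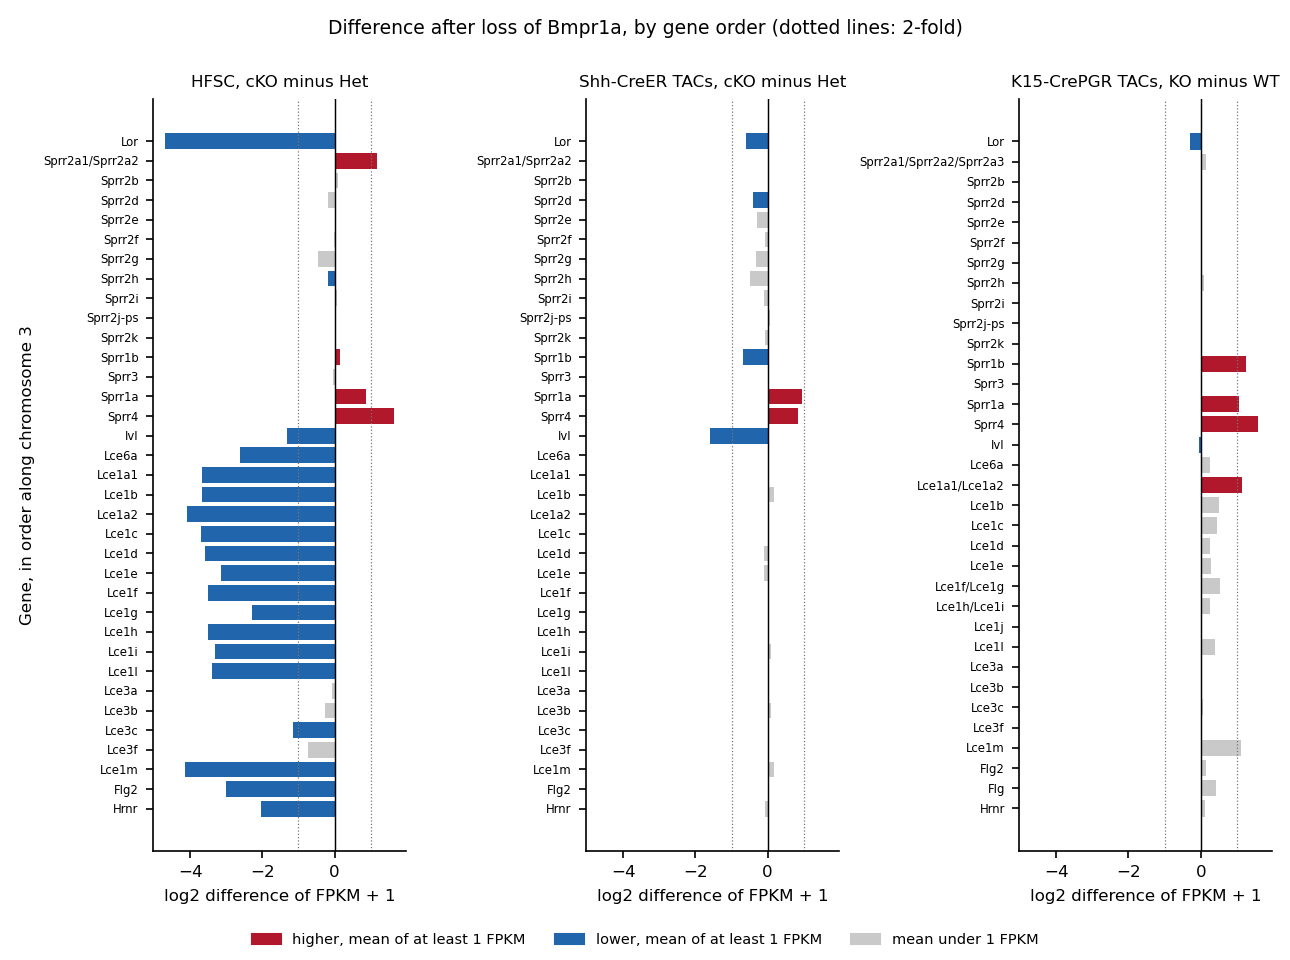
Difference of log2(FPKM + 1) for each entry in its order along chromosome 3, as cKO minus Het in HFSC and in Shh-CreER TACs (1 library each) and KO minus WT in K15-CrePGR TACs (means of 2 samples each); grey bars are entries with a mean under 1 FPKM and dotted lines mark 2-fold. In HFSC the bars of Lor and of Ivl through Hrnr point to lower levels in cKO, whereas Sprr1a and Sprr4 point to higher levels in all 3 panels.

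In TACs of Shh-CreER mice, where the comparison asked the same of the hair bulb, envelope transcripts were scarce, and the entries with a level stood in different directions. Ivl was at 9.56 FPKM in cKO and 30.9 FPKM in Het, 3.23-fold lower (log2 difference -1.60). Sprr1a was at 19.3 FPKM in cKO and 9.44 FPKM in Het, 2.04-fold higher (0.96 on the log2(FPKM + 1) scale, just under 2-fold). Only 6 of 35 entries had a mean of at least 1 FPKM, and 1 of these was at least 2-fold lower and 0 at least 2-fold higher. Over all 12296 genes kept, 2.77% were lower and 2.67% higher by that measure. The median log2 difference of the 6 members was -0.50, beside 0.01 for all genes kept, and that of all 35 entries was 0, with 15 lower in cKO, 8 higher and 12 listed at 0 in both libraries. Of the 6, Sprr4 reached the mean through the cKO library alone and Sprr2d through the Het library alone. There is again no replicate check.

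Among the 4 other kept entries, Sprr4 was at 2.28 FPKM in cKO and 0.816 FPKM in Het, 2.79-fold higher by the ratio but 0.85 on the log2(FPKM + 1) scale. Sprr1b was at 3.02 FPKM in cKO and 5.47 FPKM in Het. Lor was at 2.78 FPKM in cKO and 4.68 FPKM in Het. Sprr2d was at 0.982 FPKM in cKO and 1.64 FPKM in Het. Within one family, therefore, Sprr1a and Sprr4 stood higher in cKO and Sprr1b and Sprr2d lower, all by less than 2-fold on that scale. Transcripts of the late stage were near 0, with the Lce entries no higher than 0.141 FPKM in either library.

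The cornification machinery showed no common direction in this table. Of its 30 kept genes 1 was at least 2-fold lower and 4 at least 2-fold higher (median 0.13). Calm4, a calcium-binding protein of suprabasal keratinocytes, was at 72.5 FPKM in cKO and 17.3 FPKM in Het. The kallikrein protease Klk7 was at 21.0 FPKM in cKO and 5.31 FPKM in Het. Krtdap was at 97.7 FPKM in cKO and 31.9 FPKM in Het. Tgm3, the transglutaminase of hair and inner root sheath, was at 6.80 FPKM in cKO and 34.3 FPKM in Het. Krtdap stood the other way in the bulge, where it was at 1534 FPKM in cKO and 3143 FPKM in Het, and the difference between the tables was not tested.

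Other genes of the complex were at least 2-fold lower in 4 of 17 kept and at least 2-fold higher in 1 (median -0.22). The lower ones included S100a3, a protein of the hair cuticle, at 109 FPKM in cKO and 822 FPKM in Het, and Tchhl1, a relative of trichohyalin, at 3.59 FPKM in cKO and 20.7 FPKM in Het. S100a8 was at 13.1 FPKM in cKO and 49.5 FPKM in Het, and S100a9 at 20.4 FPKM in cKO and 62.4 FPKM in Het. Of 17 regulators 4 were at least 2-fold lower and 0 at least 2-fold higher (median -0.17). Among them, Prdm1 was at 1.36 FPKM in cKO and 12.1 FPKM in Het, Grhl1 at 54.6 FPKM in cKO and 122 FPKM in Het, and Ovol1 at 40.0 FPKM in cKO and 82.8 FPKM in Het. Suprabasal markers summed to 328 FPKM in cKO and 185 FPKM in Het, with 2 of 7 at least 2-fold higher and none at 0. Infundibulum and isthmus markers summed to 1719 FPKM in cKO and 816 FPKM in Het, with 3 of 4 kept markers at least 2-fold higher. Sebaceous markers summed to 969 FPKM in cKO and 662 FPKM in Het, with 7 of 8 at least 2-fold higher. Hair shaft keratins summed to 504 FPKM in cKO and 5354 FPKM in Het, with 9 of 10 at least 2-fold lower, and skeletal muscle markers to 18.8 FPKM in cKO and 110 FPKM in Het, with 4 of 4 kept at least 2-fold lower. Their part in the envelope values was not tested.

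TACs from K15-CrePGR bulbs were the only cells measured in more than 1 sample per genotype. Sprr4, Sprr1b and Sprr1a were above both WT samples in both KO samples, about 3.06-fold, 3.54-fold and 2.17-fold by the means, but none passed the test. Lor, Ivl and the Lce genes differed more between the 2 KO samples than between the genotypes. Of 34 entries 6 had a mean of at least 1 FPKM and entered the fit over 13565 loci (limma on log2(FPKM + 1), two-sided, Benjamini-Hochberg adjustment). Called at an adjusted p under 0.05 were 0 of the 6, and 2 had an unadjusted p under 0.05. Over all loci 0.0369% were called higher and 0.0295% lower, and 17.4% had an unadjusted p under 0.05 in either direction. Of the 6 members, 3 were above both WT samples in both KO samples and 0 below, against 26.8% and 27.5% of all loci. The 6 had a median log2 difference of 1.11, beside -0.03 for all loci and 0.11 for all 34 entries. Without KO 64 the median of the 6 was 0.27, and the Lce1a1 and Lce1a2 entry reached the mean through KO 64 alone. Whether the 4 samples come from 4 mice is not stated, so the p-values measure the spread between samples, which may be technical.

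Sprr4 (mm9 chr3:92303782-92305704) was at 45.8 FPKM in KO 64 and 52.1 FPKM in KO 84, against 19.8 FPKM in WT 52 and 12.2 FPKM in WT 57. The groups did not overlap, and the KO samples lay close together. The means were 49.0 ± 4.47 FPKM in KO and 16.03 ± 5.35 FPKM in WT (SD, n = 2 each), and the log2 difference was 1.59 ± 0.26 (SE; limma adjusted p = 0.124). Sprr1b (mm9 chr3:92240730-92242701) was at 3.77 FPKM in KO 64 and 4.88 FPKM in KO 84, against 1.49 FPKM in WT 52 and 0.953 FPKM in WT 57. Both KO samples were again above both WT samples (log2 difference 1.26 ± 0.27 (SE); limma adjusted p = 0.161).

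Sprr1a (mm9 chr3:92287873-92289817) was at 57.1 FPKM in KO 64 and 29.1 FPKM in KO 84, against 25.5 FPKM in WT 52 and 14.1 FPKM in WT 57. KO 84 and WT 52 lay close together, and the groups were separated by that small gap alone (means 43.1 ± 19.8 FPKM in KO and 19.8 ± 8.08 FPKM in WT (SD, n = 2 each), log2 difference 1.06 ± 0.44 (SE), limma adjusted p = 0.315). Sprr2 entries were at or near 0, with the highest single value 0.212 FPKM for the Sprr2a entry in KO 64, in contrast to the bulge.

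Ivl (mm9 chr3:92374767-92394781) was at 9.71 FPKM in KO 64 and 3.24 FPKM in KO 84, against 5.27 FPKM in WT 52 and 6.702 FPKM in WT 57. Lor (mm9 chr3:91884196-91887064) was at 9.20 FPKM in KO 64 and 0.465 FPKM in KO 84, against 5.20 FPKM in WT 52 and 2.63 FPKM in WT 57. For both genes the KO samples lay on either side of the WT samples, so the groups overlapped (limma adjusted p = 0.969 for Ivl and 0.898 for Lor). Leaving out KO 84 gave log2 differences of 0.62 for Ivl and 1.103 for Lor, and leaving out KO 64 gave -0.71 and -1.70. A second Ivl row, at 5.22 FPKM in KO 64, is not part of these values. With the 2 Ivl rows summed the log2 difference was -0.23, in place of -0.0451.

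The Lce genes and the filaggrin family were detected mainly in KO 64. Their 18 entries included 14 above 0 in KO 64, and each of these 14 had its highest value there. Lce1m (mm9 chr3:92821728-92822982) was at 3.69 FPKM in KO 64 and 0.0574 FPKM in KO 84, against a listed 0 in WT 52 and 0.0460 FPKM in WT 57. The joined entry of Lce1a1 and Lce1a2 was at 4.29 FPKM in KO 64 and listed at 0 in KO 84, against 0.0714 FPKM in WT 52 and a listed 0 in WT 57 (limma adjusted p = 0.518, and log2 difference -0.0497 without KO 64 against 1.15 with it). Summed Lce1 transcripts were 12.5 FPKM in KO 64 and 0.490 FPKM in KO 84, against 0.0714 FPKM in WT 52 and 0.113 FPKM in WT 57. Flg, the profilaggrin gene, had 6 rows. The row with the highest mean (mm9 chr3:93096120-93097608), shorter than the Flg transcript of 14497 bases, was at 0.710 FPKM in KO 64 and 0.0898 FPKM in KO 84. It was listed at 0 in WT 52 and at 0.0241 FPKM in WT 57.

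**Figure D3:**
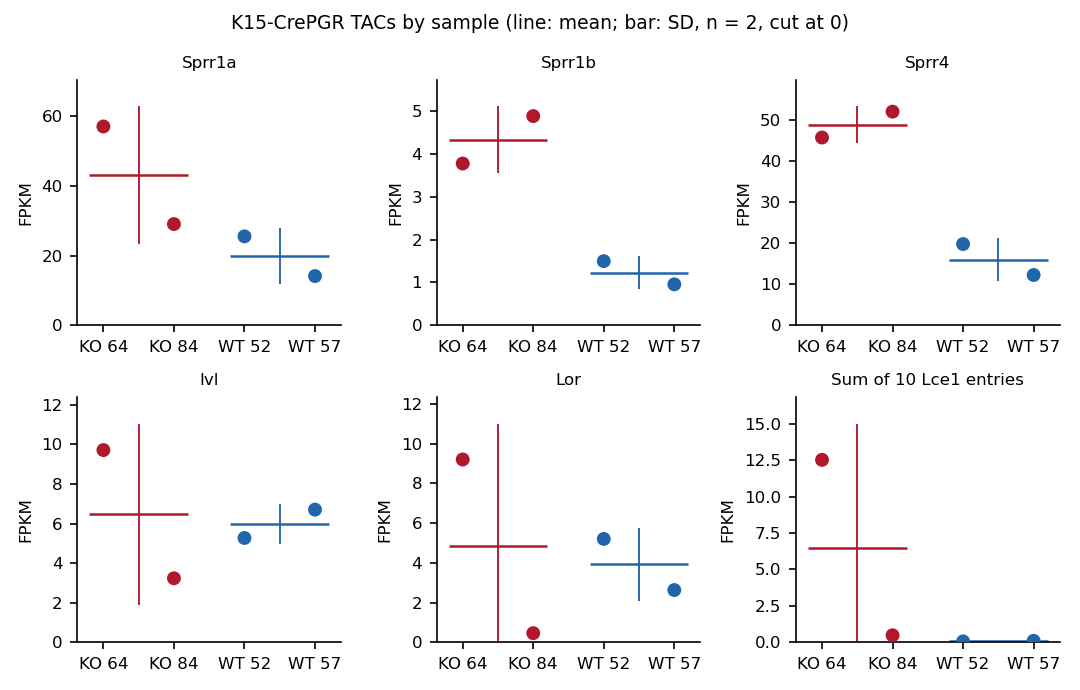
FPKM of 5 envelope genes and of the summed Lce1 entries in each K15-CrePGR TAC sample, KO in red and WT in blue, with the mean and SD of 2 samples. Both KO samples stand above both WT samples for Sprr1a, Sprr1b and Sprr4, whereas Lor and Ivl are highest in KO 64 and lowest in KO 84, and the Lce1 sum is 12.5 FPKM in KO 64 and 0.490 FPKM in KO 84.

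Some markers of other cells also set KO 64 apart, while markers of hair and bulge differed in both KO samples. Suprabasal epidermal markers summed to 369.8 FPKM in KO 64 and 223 FPKM in KO 84, against 177 FPKM in WT 52 and 133 FPKM in WT 57, with 4 of 7 at least 2-fold higher, 2 at least 2-fold lower and none at 0. Langerhans and immune markers summed to 858 FPKM in KO 64 and 147 FPKM in KO 84, against 101.1 FPKM in WT 52 and 25.4 FPKM in WT 57. Fibroblast markers summed to 1472 FPKM in KO 64 and 455 FPKM in KO 84, against 402 FPKM in WT 52 and 425 FPKM in WT 57. Infundibulum and isthmus markers were instead highest in KO 84, at 795 FPKM in KO 64 and 1949 FPKM in KO 84, against 320.3 FPKM in WT 52 and 248 FPKM in WT 57. Krt10 followed the Lce genes, at 141 FPKM in KO 64 and 40.8 FPKM in KO 84, against 21.2 FPKM in WT 52 and 10.3 FPKM in WT 57. Hair shaft keratins summed to 843 and 663 FPKM in KO 64 and 84, against 2909 and 2421 FPKM in WT 52 and 57. Inner root sheath keratins summed to 1343 and 1230 FPKM in KO 64 and 84, against 4156 and 4382 FPKM in WT 52 and 57. Both KO samples lay below both WT samples in 8 of 9 and 5 of 6 kept keratins, against 27.5% of all loci. For bulge markers both KO samples lay above in 5 of 5 kept, against 26.8% of all loci. The part of all these cells in the envelope values was not tested.

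None of the related genes passed the test in this table either. Of 26 kept genes of the cornification machinery 0 were called by limma, and 11 had an unadjusted p under 0.05, against 17.4% of all loci. KO 64 and KO 84 were both above the WT samples for 11 and both below them for 5, against 26.8% and 27.5% of all loci. Klk7 was at 18.4 FPKM in KO 64 and 19.96 FPKM in KO 84, against 5.20 FPKM in WT 52 and 3.11 FPKM in WT 57 (limma adjusted p = 0.0921). Krtdap was at 80.8 FPKM in KO 64 and 23.1 FPKM in KO 84, against 13.8 FPKM in WT 52 and 2.78 FPKM in WT 57. Krt1 was at 58.3 FPKM in KO 64 and 6.50 FPKM in KO 84, against 8.28 FPKM in WT 52 and 0.565 FPKM in WT 57, with overlapping groups. Klk7 was thus like Sprr4 in that the KO samples lay close together, and Krt1 like Lor in that they did not.

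Among 15 kept genes of the complex 0 were called by limma, and 5 had an unadjusted p under 0.05, against 17.4% of all loci. Both KO samples lay above both WT samples for 7 and below them for 4, against 26.8% and 27.5% of all loci. The cuticle gene S100a3 was at 166 FPKM in KO 64 and 81.7 FPKM in KO 84, against 623 FPKM in WT 52 and 459 FPKM in WT 57, and cornulin (Crnn) at 4.34 FPKM in KO 64 and 1.70 FPKM in KO 84, against 15.1 FPKM in WT 52 and 18.5 FPKM in WT 57. Trichohyalin (Tchh) was at 89.2 FPKM in KO 64 and 12.7 FPKM in KO 84, against 127 FPKM in WT 52 and 181 FPKM in WT 57. S100a4 was at 42.7 FPKM in KO 64 and 12.6 FPKM in KO 84, against 8.53 FPKM in WT 52 and 5.24 FPKM in WT 57.

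Of 19 regulators 0 were called by limma, and 5 had an unadjusted p under 0.05, against 17.4% of all loci. Both KO samples lay above both WT samples for 4 and below them for 3, against 26.8% and 27.5% of all loci. Ovol1 was at 25.7 FPKM in KO 64 and 26.8 FPKM in KO 84, against 72.8 FPKM in WT 52 and 53.2 FPKM in WT 57 (limma adjusted p = 0.123). Trp63, the p63 factor of basal keratinocytes, was at 142 FPKM in KO 64 and 144 FPKM in KO 84, against 80.2 FPKM in WT 52 and 85.4 FPKM in WT 57. Zfp750 was at 52.8 FPKM in KO 64 and 101.7 FPKM in KO 84, against 151 FPKM in WT 52 and 101.3 FPKM in WT 57. Grhl3 was at 9.37 FPKM in KO 64 and 20.4 FPKM in KO 84, against 21.8 FPKM in WT 52 and 23.9 FPKM in WT 57. Ovol1, the factor named in all 3 tables, had the lower value in each deleted library, and so did Grhl1 and Grhl3. The share of all genes with this pattern was not counted.

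Set side by side, the 3 tables had in common the higher level of Sprr1a and Sprr4 in every deleted library than in every control library of the same table. The share of all genes that were higher in every deleted library of all 3 tables was not counted. In K15-CrePGR bulbs alone, both KO samples lay above both WT samples for 26.8% of loci. The ratio of deleted to control was 3.22 in HFSC, 2.79 in Shh-CreER TACs and 3.06 in K15-CrePGR TACs for Sprr4, which in Shh-CreER Het was under 1 FPKM. For Sprr1a it was 1.82, 2.04 and 2.17 in the same order, and Sprr1a was within 2-fold on the log2(FPKM + 1) scale in both tables of day 68. Ivl had ratios on which the tables differed, being 2.55-fold lower in HFSC cKO, 3.23-fold lower in Shh-CreER cKO and overlapping between genotypes in K15-CrePGR bulbs. The large differences of Lor and the Lce genes were seen in the bulge, where the Het library held 1119 FPKM of Lor, while the control libraries of the bulb tables held between 2.63 and 5.20 FPKM, a comparison of levels across tables that were normalized separately. Whether the genotype difference itself differs between tables was not tested.

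The make-up of the envelope transcripts followed from these values. In HFSC, Sprr genes made up 83.7% of the summed level in cKO and Lce genes with Lor the greater part in Het, where the Lce share was 39.5%. In Shh-CreER TACs, Ivl made up 24.3% in cKO and 55.8% in Het. In K15-CrePGR TACs, Sprr genes made up 76.4% in KO 64 and 95.0% in KO 84, against 81.5% in WT 52 and 74.1% in WT 57, so that the groups overlapped. The Lce share was 9.31% in KO 64 and 0.702% in KO 84, against 0.258% in WT 52 and 0.467% in WT 57.

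**Figure D4:**
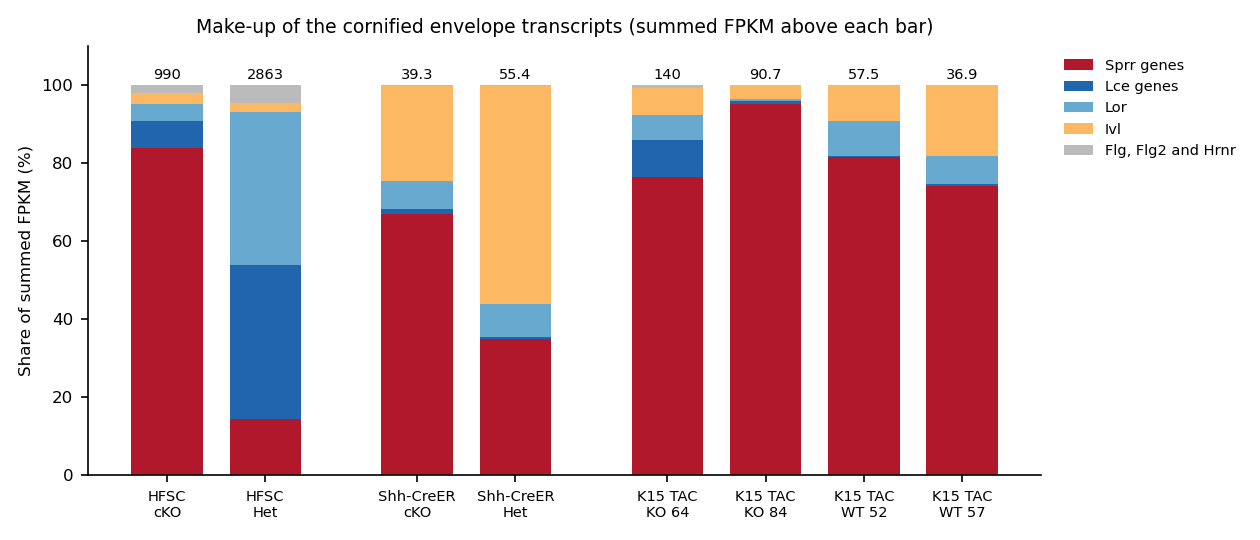
Share of the summed FPKM of all cornified envelope genes held by Sprr genes, Lce genes, Lor, Ivl and the filaggrin family in each of the 8 libraries, each bar adding to 100% and the summed FPKM printed above it. The Sprr share is 83.7% in HFSC cKO and 14.3% in HFSC Het, and Ivl holds 24.3% in Shh-CreER cKO and 55.8% in Shh-CreER Het.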

How the data were processed

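RNA-seq values of 8 libraries were used as deposited by the authors in 3 tables, in FPKM with 1 column per library. Per the submitters' processing notes, TopHat, Cufflinks and the mouse build mm9 were used; their versions, strandedness and the handling of shared reads are, in the sources used here, not given. Of entries with the same symbol the one with the highest mean was kept (Sprr2a1 with Sprr2a2 at day 68; Ivl and Flg in the K15-CrePGR table), joined loci stayed 1 entry, and unnamed loci were left out.

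Differences are of log2(FPKM + 1), deleted minus control, which understates the change of low genes; ratios are of FPKM. The filter kept entries averaging 1 FPKM or more over the table. The K15-CrePGR table was fitted as a whole with limma 3.58.1 (intensity trend, R 4.3.3, threshold 0.05) and the procedure tested on simulated data. Tables with 1 library per genotype have no test, and genes at least 2-fold apart were counted. An exact 0 can be a failed estimate and is given as listed at 0. FPKM are not counts, so no interval is given.

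The members and the lists were chosen with earlier results of these data known. Values are printed per library for Bmpr1a, for members averaging 5 FPKM or more, and, under the same minimum, for up to 4 genes per list with the largest difference; lower members, marker genes and second mentions were added after their values were seen. The TATAA motif was added after the data were seen. Protein sequences were not used here. Alternatives were a pseudocount of 0.1 or 5, no filter or one of 5 FPKM, median scaling, quantile normalization (K15-CrePGR table), no trend, summed rows, and each K15-CrePGR sample left out. Python 3.11.15, pandas 2.3.3 and matplotlib 3.10.9 were used.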

Additional observations from a re-analysis of the deposited data

Results flagged for a closer look

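Sprr1b stood in opposite directions in different tables, and the difference between tables was not tested. Its log2 difference was 0.16 in HFSC (cKO minus Het), -0.69 in Shh-CreER TACs (cKO minus Het) and 1.26 in K15-CrePGR TACs (KO minus WT). The HFSC and Shh-CreER values each rest on 1 library per genotype and lie within 2-fold.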

How the results depend on the processing

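In HFSC the counts of 18 lower and 2 higher members and in Shh-CreER TACs that of 1 lower member stayed within 1.5 times under every alternative run. The median of the kept HFSC members (-3.15) was -2.05 with a pseudocount of 5 FPKM, -1.32 with no filter and -3.76 with a pseudocount of 0.1 FPKM. That of the Shh-CreER members (-0.50) was -0.23 with a pseudocount of 5 FPKM, -0.0783 with no filter and -0.32 with a filter of 5 FPKM, which left 2 members. With a pseudocount of 0.1 FPKM 2 Shh-CreER members (Sprr1a and Sprr4) were at least 2-fold higher in place of 0. For the K15-CrePGR samples, 0 members were called under any of the 12 alternatives; in the 4 that leave out a sample, 1 genotype has a single sample, assumed to vary like the other, so their adjusted p-values say little. Leaving out 1 sample gave log2 differences between -0.71 and 0.62 for Ivl, between -1.70 and 1.103 for Lor and between -0.0497 (without KO 64) and 2.35 for the Lce1a1 and Lce1a2 entry. Without WT 57 Ivl was at 0.10, without WT 52 Lor was at 0.09, and with a pseudocount of 5 FPKM Ivl was at 0.0057; the cause was not tested. The count of kept members above every WT sample in every KO sample was between 3 and 6 when 1 sample was left out, an alternative added after the data were seen, with 6 only without KO 84; leaving out a sample can raise this count but not lower it. Sprr4 kept a positive log2 difference in every alternative (1.26 to 1.91, limma adjusted p between 0.105 and 0.660). Depth is not stated, and members under 1 FPKM rest on few reads. No paired analysis was possible because the labels give the compared groups no shared replicate numbers.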
